A study of Mus musculus with 5 samples.

Results

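The genes described are the G1 cyclins and the CDK inhibitors of the mouse, a family of 10 listed genes. They are the D-type cyclins Ccnd1, Ccnd2 and Ccnd3, the E-type cyclins Ccne1 and Ccne2, the CIP/KIP inhibitors Cdkn1b and Cdkn1c, and the Cdkn2a, Cdkn2b and Cdkn2c genes of the INK4 family. A gene was taken up through every array probe set whose annotation names that gene alone. By this rule 9 of the 10 genes were measured, each by 1 probe set, out of 22180 genes with such a probe set. Ccne2 shares its probe set with a neighbouring gene, so no value is given for it.

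The measurements come from mouse embryonic fibroblasts (MEFs) that lack their own STING and express its R284S variant. STING relays the detection of DNA in the cytosol to the kinase TBK1 and the factor IRF3, and R284S is a constitutively active form. The cells are labelled as primary MEFs. They received Compound C, doxorubicin, GSK 690693, tofacitinib or vehicle for 9 hours, and each treatment gave 1 array. Every array, the vehicle array included, carries both the STING deletion and the R284S variant, and no source used here gives the doses. Compound C is an inhibitor of AMPK, the kinase that senses low energy, and of BMP type I receptors, and GSK 690693 is an inhibitor of AKT that also acts on AMPK. Tofacitinib blocks JAK kinases and doxorubicin traps topoisomerase II on DNA. The study concerns inhibitors of AMPK in STING-driven inflammation, and of the compounds here Compound C and GSK 690693 act on AMPK. The question here is where the genes that govern entry into S phase lay on each array.

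Cells leave G1 when D-type cyclins activate CDK4 and CDK6, and cyclin E then activates CDK2. Together these kinases phosphorylate the RB family and release E2F transcription factors. INK4 proteins bind CDK4 and CDK6 and keep D cyclins off them, whereas CIP/KIP proteins bind cyclin-CDK complexes, foremost those of CDK2. In cultured MEFs the Cdkn2a locus is known for limiting the number of divisions, through p16INK4a and through p19ARF, which restrains MDM2 and so stabilises p53.

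The values are log2 signals, so a difference of 1 is 2-fold, and a gene was counted as higher or lower at 1.5-fold, a log2 difference of 0.585. With 1 array per treatment there was no replicate error and no test, and each difference is one between single arrays. The background is the 12317 genes that reached the median signal of their array (5.37 to 5.44) on at least 1 array. All 9 measured genes were among them. Over these genes the closest arrays were those of GSK 690693 and tofacitinib, with a standard deviation of 0.258 in their log2 differences, against 0.295 for tofacitinib and vehicle, 0.306 for GSK 690693 and vehicle, 0.455 for Compound C and vehicle and 0.584 for doxorubicin and vehicle. The median signal of these genes was 7.39 on the tofacitinib array, against 7.22 on the vehicle array, and centring each array on its median lowers every tofacitinib difference by 0.17. Values are as deposited unless said to be centred. Centring raises the Compound C and doxorubicin differences by 0.06 and lowers those of GSK 690693 by 0.07. All 10 fibroblast markers examined passed the filter, between 6.30 and 12.68. So did 2 of 7 leukocyte, 2 of 5 endothelial, 3 of 4 epithelial, 3 of 3 muscle and 2 of 3 pluripotency markers, among them Krt8 at 6.01 to 6.20 and Myog at 5.83 to 6.26. The highest value of any marker outside the fibroblast list was 7.63, for Cd68. Ptprc (leukocytes, at most 3.86), Pecam1 (endothelium, at most 5.31) and Epcam (epithelium, at most 3.92) stayed below the filter. Csf1r (leukocytes, at most 5.52), Cdh5 and Kdr (endothelium, at most 5.40 and 6.26) and Cdh1 (epithelium, at most 5.56) passed it. In bulk RNA, fewer cells in a cell-cycle phase and less of a transcript per cell cannot be told apart.

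The sequences upstream of the genes on which the results turn are shown because Cdkn2b and Cdkn2a lie next to each other yet stood on opposite sides of vehicle with doxorubicin, because Cdkn1b was low with doxorubicin and high with GSK 690693, and because Ccne1 separated Compound C from tofacitinib. Cdkn2a has separate starts for its p19ARF and p16INK4a transcripts, which share later exons. Its probe set carries the gene symbol alone, so the transcripts were not told apart here. Each sequence is the 250 bases before an annotated start in GRCm38.p6, from RefSeq, 5′ to 3′ on the strand of the gene. Capitals mark matches on either strand to the motifs searched.
Cdkn2b, chr4:89311033-89311282, minus strand: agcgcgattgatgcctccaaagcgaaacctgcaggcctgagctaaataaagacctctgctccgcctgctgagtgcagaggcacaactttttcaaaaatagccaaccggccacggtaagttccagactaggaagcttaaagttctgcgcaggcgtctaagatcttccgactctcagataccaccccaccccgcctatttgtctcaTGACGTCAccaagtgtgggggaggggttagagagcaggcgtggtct
Cdkn2a, the start farther from the shared exons, chr4:89294620-89294869, minus strand: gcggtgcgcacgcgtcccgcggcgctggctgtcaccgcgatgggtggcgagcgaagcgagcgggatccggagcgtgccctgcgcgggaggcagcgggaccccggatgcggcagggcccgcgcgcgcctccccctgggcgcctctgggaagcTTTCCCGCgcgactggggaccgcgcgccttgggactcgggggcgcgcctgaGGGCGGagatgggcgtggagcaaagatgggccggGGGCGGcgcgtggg
Cdkn2a, the nearer start, chr4:89282193-89282442, minus strand: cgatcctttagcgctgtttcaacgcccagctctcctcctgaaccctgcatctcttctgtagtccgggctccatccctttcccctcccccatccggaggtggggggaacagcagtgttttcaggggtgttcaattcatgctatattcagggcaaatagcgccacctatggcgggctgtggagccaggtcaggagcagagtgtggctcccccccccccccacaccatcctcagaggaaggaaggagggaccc
Cdkn1b, chr6:134920151-134920400, plus strand: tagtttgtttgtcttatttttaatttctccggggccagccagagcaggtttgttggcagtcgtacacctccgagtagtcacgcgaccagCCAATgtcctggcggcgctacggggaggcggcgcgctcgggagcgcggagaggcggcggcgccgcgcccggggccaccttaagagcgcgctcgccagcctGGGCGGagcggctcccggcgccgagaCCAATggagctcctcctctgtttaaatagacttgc
Ccne1, chr7:38107491-38107740, minus strand: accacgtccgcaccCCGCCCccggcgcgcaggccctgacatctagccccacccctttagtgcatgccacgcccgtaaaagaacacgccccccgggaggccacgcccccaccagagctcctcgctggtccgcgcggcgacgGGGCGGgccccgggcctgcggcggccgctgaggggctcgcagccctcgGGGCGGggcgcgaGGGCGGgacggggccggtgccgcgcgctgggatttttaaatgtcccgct

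The motifs searched were the cyclic AMP response element TGACGTCA, the box CCAAT, the GC box GGGCGG, the E2F-type words TTTCCCGC, TTTGGCGC and TTTCGCGC, and the FOXO-type word TGTTTAC, a set chosen after the data had been seen. No matches overlapped each other in these windows. The Cdkn2b window held TGACGTCA, starting 46 bases before the start site, a word found in 1.55% of the 32851 promoter windows of the same length. Cdkn1b held CCAAT at 161 and 35 bases before its start and GGGCGG at 61, and such matches are common, with CCAAT in 33.8% and GGGCGG in 32.7% of all windows. Ccne1 held 4 GC boxes and no other motif of the set. The farther Cdkn2a window held TTTCCCGC, which occurs in 0.895% of windows, and 2 GC boxes, and the nearer one held none of the motifs. By base composition the windows were unlike, with 53.6% G and C before Cdkn2b, 60% before the nearer and 78.4% before the farther Cdkn2a start, 64.4% before Cdkn1b and 76.0% before Ccne1, against a median of 52.4% over all windows. A match describes these letters and not a bound factor. Windows were found for 6 of the 10 genes, those named here and Ccnd3 and Cdkn2c, and not for Ccnd1, Ccnd2, Ccne2 and Cdkn1c.

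Doxorubicin separated the family most. With it, cyclins D1 and D3 and the inhibitors Cdkn1c and Cdkn2a read at least 1.5-fold higher than with vehicle, and the inhibitors Cdkn2b and Cdkn1b at least 1.5-fold lower. That is 4 of 9 genes higher, where 11.5% of all 12317 genes were higher by that much, and 2 of 9 lower, against 14.2% of all genes. Each of the other compounds placed 1 gene past 1.5-fold. With Compound C it was Ccne1, lower, 1 of 9 beside 9.99% of all genes, and 0 of 9 were higher beside 6.06%. With GSK 690693 it was Cdkn1b, higher, beside 2.4% of all genes, and 0 of 9 were lower beside 3.21%. With tofacitinib it was Ccne1, higher, beside 2.66% of all genes, and 0 of 9 were lower beside 2% of all genes. None of the 9 genes differed 2-fold from vehicle with any compound. The Compound C, GSK 690693 and tofacitinib calls lay close to the threshold and each was inside it after centring. Some doxorubicin calls lay as close, at 0.61 for Cdkn2a, 0.66 for Ccnd3 and 0.67 for Ccnd1. Centring raises every doxorubicin difference, so it could not bring the 4 higher calls inside the threshold. The 2 lower ones stayed past it, at -0.64 for Cdkn1b and -0.90 for Cdkn2b. Against the median of the other 4 arrays, Cdkn2a stood at 0.45, inside the threshold.

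**Figure D1:**
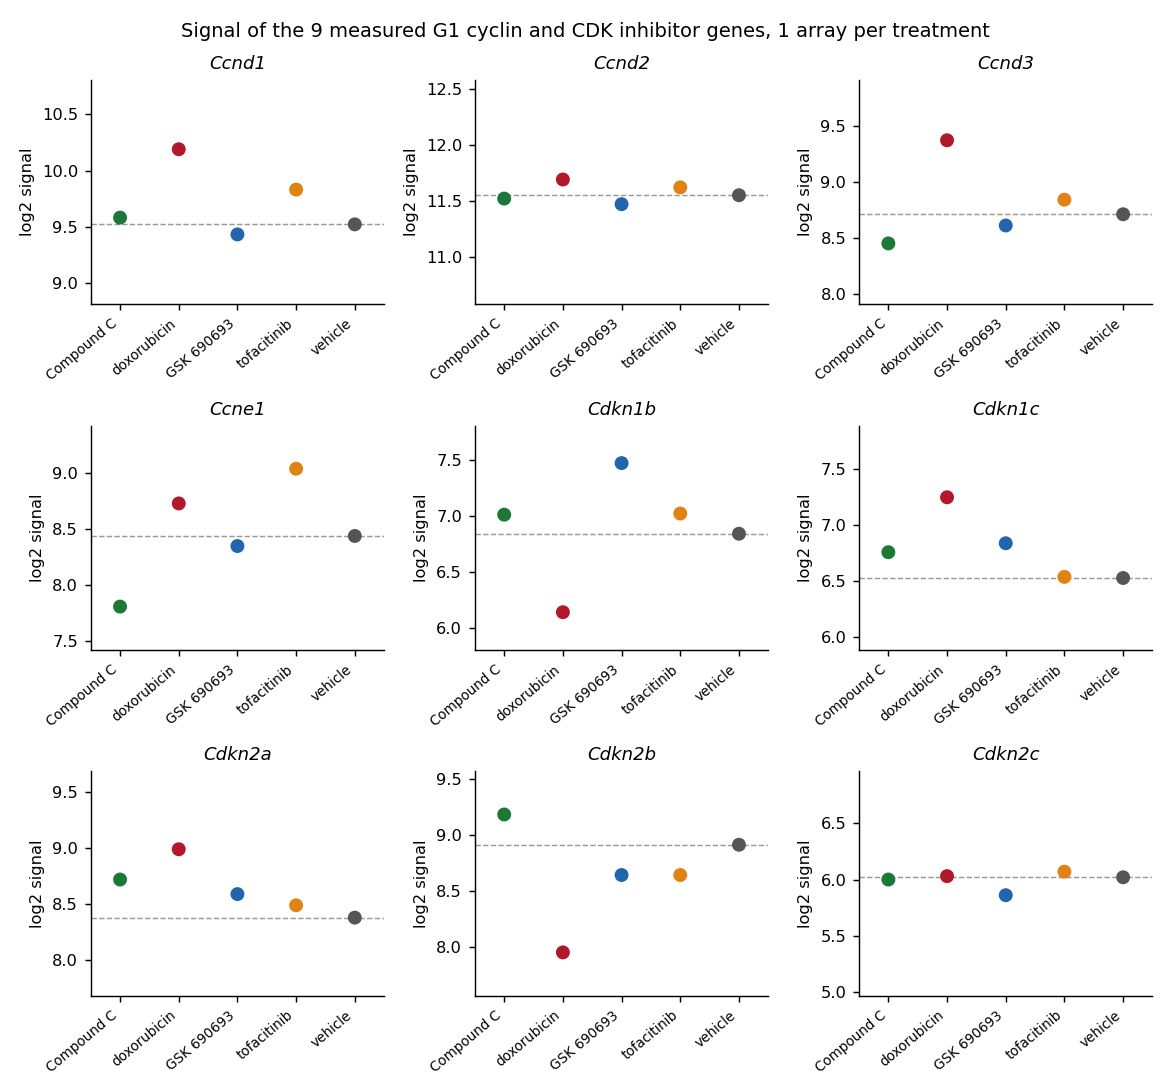
Log2 signal (vertical axis, 2 units in every panel) of the 9 measured genes on the 5 arrays, with 1 point per array and the vehicle level as a dashed line. Doxorubicin holds the highest point for Ccnd1, Ccnd3, Cdkn1c and Cdkn2a and the lowest for Cdkn1b and Cdkn2b, while Ccnd2 and Cdkn2c span 0.22 and 0.21.

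The median absolute difference over the 9 genes was 0.66 with doxorubicin, where it was 0.34 over all tested genes. With Compound C these medians were 0.23 for the 9 genes and 0.25 for all genes, with GSK 690693 they were 0.16 and 0.19, and with tofacitinib 0.13 and 0.19. The signed median of the 9 genes was 0.29 with doxorubicin (all genes 0.05), 0.06 with Compound C (all genes -0.02), -0.09 with GSK 690693 (all genes 0.04) and 0.11 with tofacitinib (all genes 0.09). The tofacitinib median turned to -0.06 after centring, and the Compound C median to -0.025 against the median of the other 4 arrays.

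**Figure D2:**
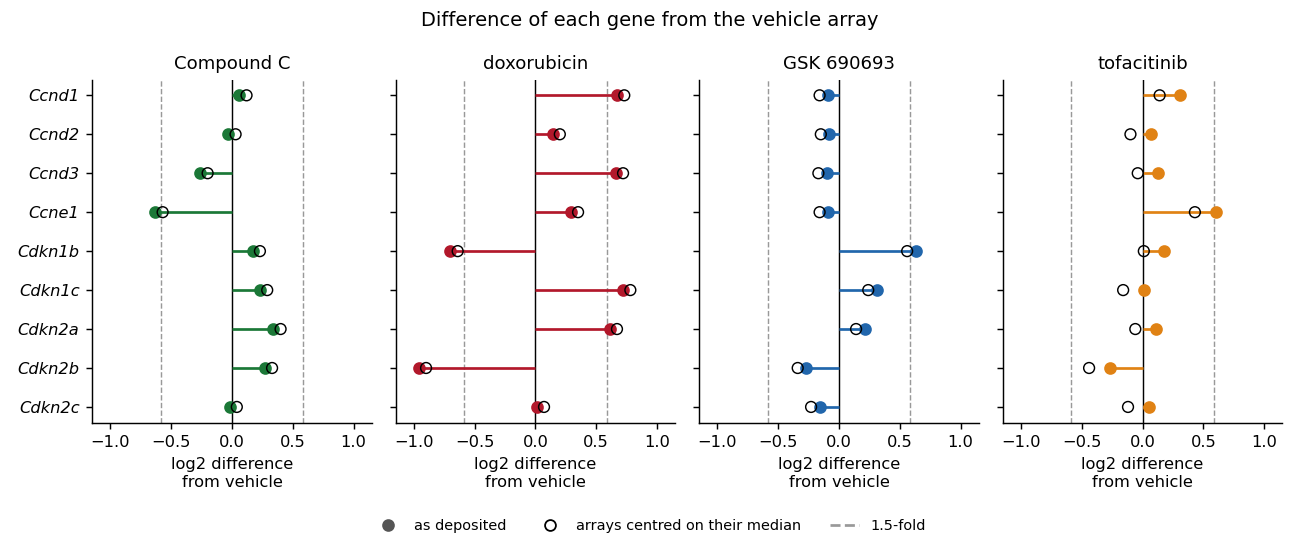
Log2 difference of each gene from the vehicle array (horizontal axis) for the 4 compounds, with filled points for deposited values, open points after centring each array on its median and dashed lines at 1.5-fold. The 6 doxorubicin genes lie past the lines by either scale, and the open points of Ccne1 with Compound C (-0.57), Cdkn1b with GSK 690693 (0.56) and Ccne1 with tofacitinib (0.43) lie inside them.

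Among the D-type cyclins, which pair with CDK4 and CDK6 and couple growth factor signals to the cell cycle, Ccnd1 and Ccnd3 read more than 1.5-fold higher with doxorubicin than with vehicle, and Ccnd2 lay within 0.14 of vehicle on every array. Ccnd1, encoding cyclin D1, had log2 signals of 9.58 with Compound C, 10.19 with doxorubicin, 9.43 with GSK 690693, 9.83 with tofacitinib and 9.52 with vehicle. The doxorubicin array was the highest and the GSK 690693 array the lowest, close to vehicle and Compound C. Against vehicle the doxorubicin value was 1.59-fold higher, a log2 difference of 0.67, and 91.7% of all tested genes had a lower difference. With tofacitinib Ccnd1 stood 0.31 above vehicle, or 0.14 after centring.

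Ccnd3, encoding cyclin D3, had log2 signals of 8.45 with Compound C, 9.37 with doxorubicin, 8.61 with GSK 690693, 8.84 with tofacitinib and 8.71 with vehicle. It was again highest with doxorubicin, and Compound C gave the lowest value. The difference from vehicle was 0.66 with doxorubicin, 1.58-fold, and -0.26 with Compound C. Between the Compound C and doxorubicin arrays it came to -0.92, or 1.89-fold, where the standard deviation over all tested genes was 0.656 for this pair.

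Ccnd2, encoding cyclin D2, had log2 signals of 11.52 with Compound C, 11.69 with doxorubicin, 11.47 with GSK 690693, 11.62 with tofacitinib and 11.55 with vehicle. The arrays lay within 0.22 of each other, where 4.03% of tested genes had a smaller range, and none stood apart. The sign of its small difference turned with centring for Compound C, from -0.03 to 0.03, and for tofacitinib, from 0.07 to -0.10.

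Ccne1 encodes cyclin E1, the partner of CDK2 at the start of S phase and a classic E2F target. Its log2 signals were 7.81 with Compound C, 8.73 with doxorubicin, 8.35 with GSK 690693, 9.04 with tofacitinib and 8.44 with vehicle. Compound C gave the lowest and tofacitinib the highest value, with GSK 690693 near vehicle. Ccne1 was 1.55-fold lower with Compound C than with vehicle (log2 -0.63) and 1.52-fold higher with tofacitinib (log2 0.60). After centring these differences were -0.57 and 0.43, inside 1.5-fold. Set directly against each other, the Compound C and tofacitinib arrays differed by -1.23, which is 2.35-fold, where the standard deviation over all genes was 0.5. The median signals of these arrays were 7.16 and 7.39, so centring makes this difference smaller. Doxorubicin stood 0.29 above vehicle.

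The CIP/KIP genes took opposite sides with doxorubicin. Cdkn1b encodes p27KIP1, an inhibitor of cyclin E-CDK2 that FOXO factors induce and AKT signalling opposes. Its log2 signals were 7.01 with Compound C, 6.14 with doxorubicin, 7.47 with GSK 690693, 7.02 with tofacitinib and 6.84 with vehicle. The AKT inhibitor GSK 690693 gave the highest value and doxorubicin the lowest, with the other 3 arrays within 0.18 of each other. Cdkn1b was 1.55-fold higher with GSK 690693 than with vehicle, a log2 difference of 0.63 that exceeded that of 98.2% of tested genes, and 0.56 after centring. With doxorubicin it was 1.62-fold lower (log2 -0.70). Its range over the 5 arrays, 1.33, was the largest of the 9 genes and larger than that of 90.5% of tested genes. Against the median of the other 4 arrays in place of vehicle, its difference was 0.545 with GSK 690693, short of 1.5-fold, and -0.875 with doxorubicin. The doxorubicin value of 6.14 lay within 1 unit of the filter, where background signal, if any was left, could make a difference look smaller.

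Cdkn1c encodes p57KIP2, an imprinted inhibitor active in differentiation and development. It had log2 signals of 6.76 with Compound C, 7.25 with doxorubicin, 6.84 with GSK 690693, 6.54 with tofacitinib and 6.53 with vehicle. Doxorubicin was highest. Tofacitinib differed from vehicle by 0.01, or -0.16 after centring. The doxorubicin value was 1.65-fold higher than vehicle (log2 0.72), more than for 93.4% of tested genes. With Compound C and GSK 690693 the differences were 0.23 and 0.31, inside 1.5-fold.

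In the INK4 family the adjacent genes Cdkn2a and Cdkn2b parted with doxorubicin. Cdkn2b encodes p15INK4b, an inhibitor of CDK4 and CDK6 induced by TGF-beta. It had log2 signals of 9.18 with Compound C, 7.95 with doxorubicin, 8.64 with GSK 690693, 8.64 with tofacitinib and 8.91 with vehicle. Doxorubicin gave the lowest value by a wide gap and Compound C the highest. At 1.95-fold lower than vehicle (log2 -0.96), the doxorubicin value was the largest departure from vehicle of any of the 9 genes with any compound, and 6.94% of tested genes had a still lower difference. With GSK 690693 and with tofacitinib Cdkn2b stood at -0.27, or -0.34 and -0.44 after centring. Compound C exceeded doxorubicin by 1.23, or 2.35-fold, and vehicle by 0.27.

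Cdkn2a encodes p16INK4a and p19ARF. It had log2 signals of 8.72 with Compound C, 8.99 with doxorubicin, 8.59 with GSK 690693, 8.49 with tofacitinib and 8.38 with vehicle. Vehicle was the lowest array and doxorubicin the highest. The doxorubicin value was 1.53-fold higher than vehicle (log2 0.61), just past the threshold, and 0.45 above the median of the other 4 arrays, inside 1.5-fold. The other differences from vehicle were 0.34 with Compound C, 0.21 with GSK 690693 and 0.11 with tofacitinib, and the last became -0.06 after centring. The signal stood above the filter on all 5 arrays.

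Cdkn2c, encoding p18INK4c, had log2 signals of 6.0 with Compound C, 6.03 with doxorubicin, 5.86 with GSK 690693, 6.07 with tofacitinib and 6.02 with vehicle. These arrays spanned 0.21, the smallest range of the 9 genes, and no array stood apart. The values lay within 1 unit of the filter, so background signal, if any was left, could make a difference look smaller.

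**Figure D3:**
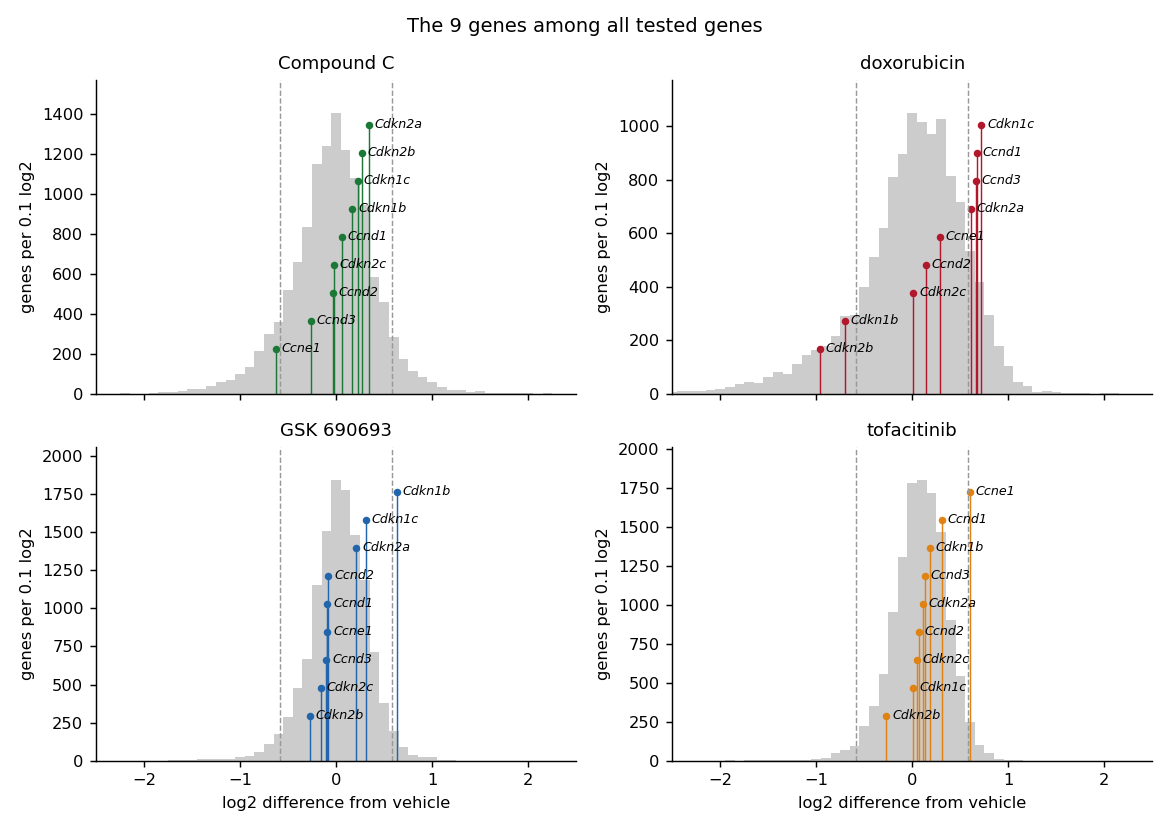
Number of tested genes (vertical axis) per 0.1 of log2 difference from vehicle (horizontal axis) for each compound in grey, with the 9 genes marked at their differences and dashed lines at 1.5-fold. With doxorubicin 6 of the 9 genes lie outside the dashed lines, while with each other compound 1 gene does.

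Of the 50 other genes of the pathway that were listed, 48 were measured and passed the filter. With doxorubicin 19 of these 48 were at least 1.5-fold lower and 2 higher, with a median difference of -0.415. The median was -0.125 with Compound C, where 7 genes were lower and 5 higher. With GSK 690693 1 was lower and 0 higher (median 0.055), and with tofacitinib 0 were lower and 1 higher (median 0.12). After centring, 15 were lower and 2 higher with doxorubicin, 6 lower and 5 higher with Compound C, 1 lower and 0 higher with GSK 690693, and 0 lower and 0 higher with tofacitinib. The shares of all genes lower and higher given above for each compound are the background to the counts before centring. That includes the counts by group below. After centring, 1571 of all 12317 genes were lower and 1775 higher with doxorubicin, and 1026 lower and 945 higher with Compound C. With GSK 690693 541 were lower and 171 higher, and with tofacitinib 600 lower and 67 higher.

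The kinases that the 9 genes act on differed little. Cdk4, the main partner of the D cyclins, had log2 signals of 10.29 with Compound C, 10.86 with doxorubicin, 10.90 with GSK 690693, 10.94 with tofacitinib and 10.60 with vehicle. Cdk6 stayed within 0.37 and Cdk2 within 0.39 of vehicle with every compound. Of the 7 kinases and activators, Cdk7, the catalytic subunit of the CDK-activating kinase, was lower with doxorubicin (-1.43) and Compound C (-0.66), and Cdc25a, the phosphatase that activates CDK2, was lower with doxorubicin (-1.49).

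Among the 13 pocket protein and E2F genes, doxorubicin left 3 at least 1.5-fold lower and 0 higher. These were the repressor E2f8 (-2.35), the activator E2f3 (-1.40) and E2f4 (-1.08), which acts with pocket proteins. The activator E2f1, by contrast, differed by 0.49 with doxorubicin. With Compound C the retinoblastoma gene Rb1 was higher (0.60, and 0.18 on a dim second probe set) and its relative Rbl1, encoding p107, lower (-0.61, and -0.55 after centring, inside 1.5-fold). With GSK 690693 E2f8 was lower (-0.74), and with tofacitinib 0 of the 13 passed 1.5-fold.

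The list also held the remaining CIP/KIP and INK4 genes. Cdkn1a, the p53 target that encodes p21CIP1, had log2 signals of 12.10 with Compound C, 11.30 with doxorubicin, 11.50 with GSK 690693, 11.63 with tofacitinib and 11.97 with vehicle. It was lowest with doxorubicin, 0.67 below vehicle, as Cdkn1b was. Cdkn2d, encoding p19INK4d, was higher with Compound C by 0.61 and differed by -0.45 with doxorubicin.

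Of 10 measured genes whose products degrade cyclins and CDK inhibitors, 5 were lower and 2 higher with doxorubicin, or 2 lower and 2 higher after centring, which took Skp2, Fbxw7 and Ambra1 inside 1.5-fold. Skp2, which targets p27 for degradation, stood at -0.63, Cul1, the scaffold of its ligase, at -0.69, and Fbxw7, which targets cyclin E, at -0.64. Ambra1, which targets D cyclins, stood at -0.62, and Dtl, which directs p21 degradation in S phase, at -0.96. Skp1 was higher, by 0.71, although a dim second probe set read -0.66, and Rnf123, a ligase for p27 in G1, was higher by 0.70. With Compound C Ambra1 (0.66) and Fbxw7 (0.61) were instead on the higher side, and with tofacitinib Fbxo4 was (0.61, or 0.44 after centring, inside 1.5-fold).

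Of 14 transcriptional regulators of the family, 7 were lower with doxorubicin and 0 higher, or 6 and 0 after centring. Myc, which promotes cyclin expression and represses Cdkn2b and Cdkn1b, stood at -3.09, the AP-1 factor Jun, an activator of Ccnd1, at -2.65, Id1, a repressor of p16, at -2.46, and Foxo1 at -1.23 (-0.42 on a second probe set). With Compound C the regulators were split, with Foxo3 higher by 1.37 and with Hmga2 (-1.86), Id1 (-1.83), Jun (-1.11), Myc (-1.05) and Ezh2 (-0.83) lower. With GSK 690693 and tofacitinib none of the 14 passed 1.5-fold. Of the ARF partners, Mdm2, the ubiquitin ligase that p19ARF binds, stood at -1.42 with doxorubicin and 0.34 with Compound C, and Npm1 lay within 0.39 of vehicle throughout.

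**Figure D4:**
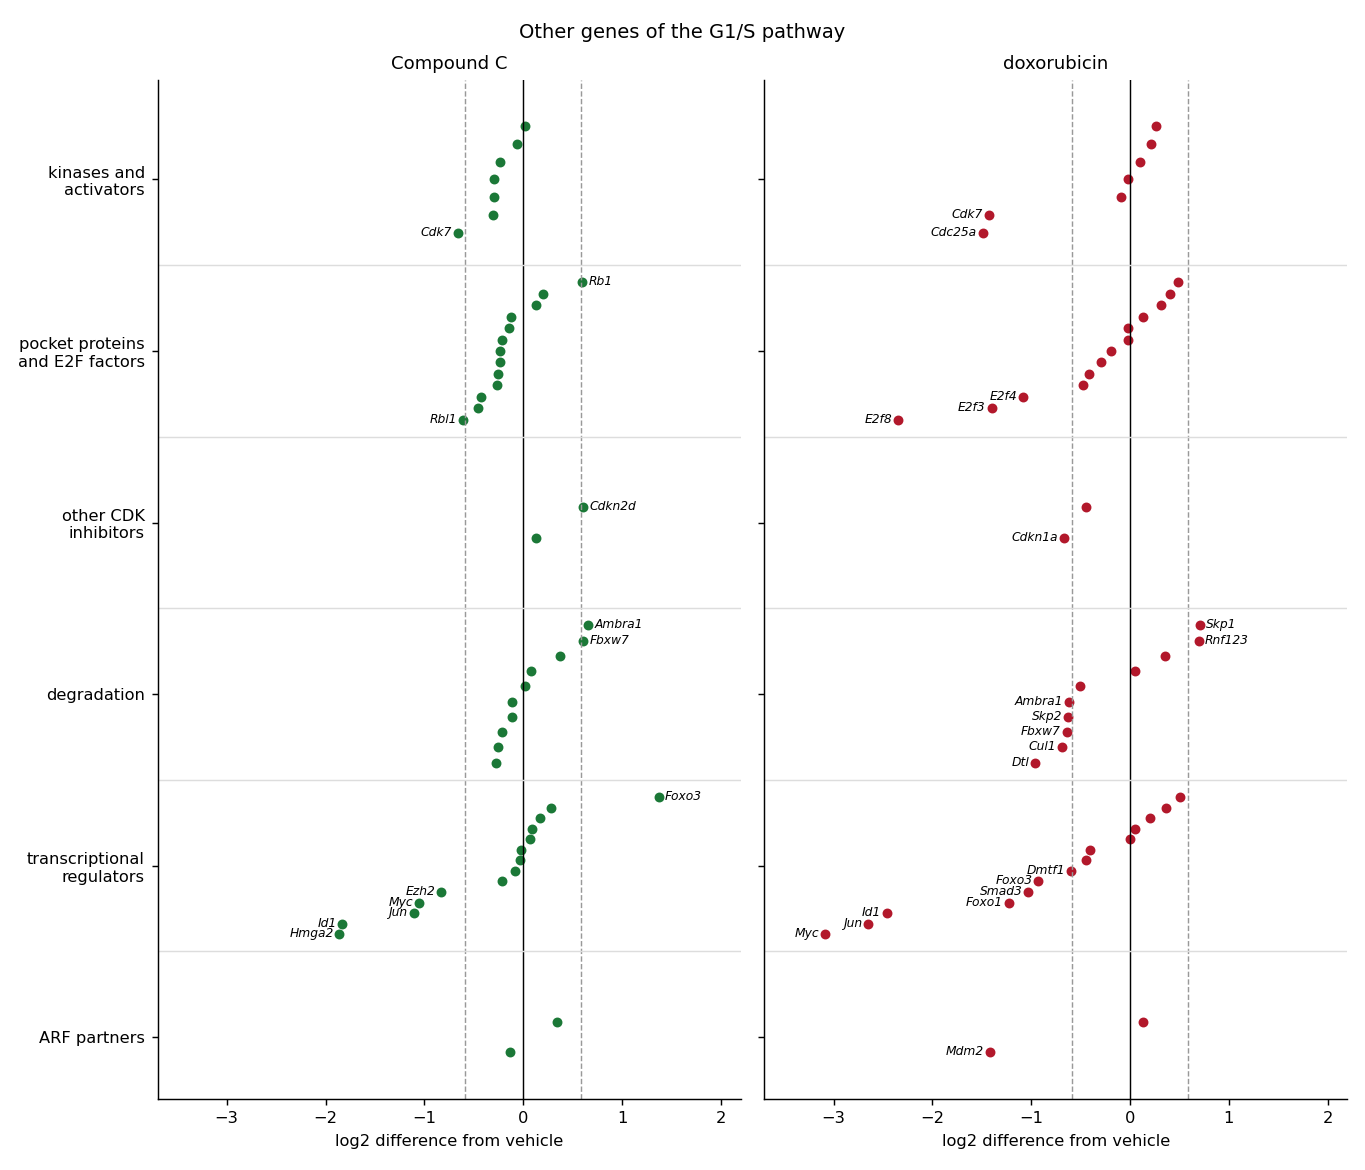
Log2 difference from vehicle (horizontal axis) of the 48 other pathway genes with Compound C and with doxorubicin, grouped by role, with dashed lines at 1.5-fold and names for genes past them. Doxorubicin places 19 genes to the left and 2 to the right of the lines, and Compound C 7 and 5.

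Single markers of other cell types also read higher on the doxorubicin array, where most of the differences in the family were seen. The summed signal of the 7 leukocyte markers was 8.36 on the log2 scale with doxorubicin, between 7.76 and 7.88 with the other compounds, and 7.77 with vehicle, and 2 of the 7, Cd68 and Csf1r, passed the filter. Cd68, a lysosomal protein gene, read 7.63 with doxorubicin and 6.56 with vehicle and was the brightest of the list. The other leukocyte markers lay closer to vehicle on that array. Csf1r read 5.27 with doxorubicin and 4.93 with vehicle, and was highest with GSK 690693 (5.52). Itgam read 4.42 with doxorubicin and 4.22 with vehicle. Ptprc read 3.65 with doxorubicin and 3.86 with vehicle, Fcgr1 4.70 and 4.80, Aif1 4.36 on both arrays, and Adgre1 3.60 on both. Among the 3 pluripotency markers Sox2 read 5.63 with doxorubicin and 3.92 with vehicle, Nanog 5.03 and 4.81, and Pou5f1 5.24 and 5.23. Their summed signal was 6.91 with doxorubicin and 6.33 with vehicle. Most fibroblast markers also read higher with doxorubicin, and Lum differed most, at 8.1 with doxorubicin and 6.3 with vehicle. Thy1, Dcn, Col3a1, Vim and Fn1 were higher by less, and Col1a2 was nearly level (10.62 and 10.61). Pdgfrb (9.47 and 9.87), Col1a1 and Pdgfra read lower. The summed fibroblast signal was 14.49 with doxorubicin and 14.39 with vehicle. The part of these marker transcripts in the differences of the 9 genes was not tested.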

How the data were processed

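The deposited values are log2 signals, 1 for each probe set on each array. Per the submitters' processing notes the values came from Affymetrix Expression Console 1.3.1.187. No source used here gives the summarisation, normalization or filters, and the log base was inferred from the range of the values, 1.05 to 13.18. Per the labels, 300 ng of total RNA per sample was labelled with a whole-transcript kit. Of 41345 probe sets, 23521 had 1 symbol in the platform annotation, 1814 carried more than 1 and 16010 were unnamed. For 1082 genes with several probe sets, the one with the highest mean stood for the gene. Genes were kept if they reached the median of an array at least once. Differences are compound minus vehicle on the log2 scale. Without replicates no test was run, and the number of arrays limits the precision. The counting was tested on simulated data. The alternatives were centring, averaging probe sets, no or a stricter filter, another baseline and a 2-fold threshold. All 9 genes and up to 4 genes of each pathway group are named, with a few more named after their values were seen. Genes of like profile were to be named for members 2-fold from vehicle, and there were none. The genes and lists were chosen with earlier results of these data known. Calculations used Python 3.11.15, numpy 2.4.6 and pandas 2.3.3.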

Additional observations from a re-analysis of the deposited data

How the results depend on the processing

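No member value changed sign among those past 1.5-fold. Of 180 differences of single genes under 5 alternatives, 177 moved by less than 0.258, the standard deviation of the closest pair of arrays. Most of them could not move that far. Each gene had 1 probe set and passed both filters, so averaging probe sets and changing the filter left its value unchanged. Centring shifts a value by at most 0.17. Only the median of the other 4 arrays in place of vehicle could move a value further. With that baseline 33 values stayed within 0.258 and 3 did not. The exceptions were Cdkn2b with Compound C (0.54), Cdkn1c with tofacitinib (-0.26) and Cdkn2a with tofacitinib (-0.165). After centring, the count of members past 1.5-fold became 0 lower with Compound C, 0 higher with GSK 690693 and 0 higher with tofacitinib, and with the other baseline 0 were higher with GSK 690693 and 3 in place of 4 with doxorubicin. In an alternative chosen after seeing the data, centring left 0 in place of 1 other pathway gene higher with tofacitinib. At 2-fold the count of members was 0 for every compound, doxorubicin included in both directions. Over all genes, centring gave 171 in place of 296 higher genes with GSK 690693, and with tofacitinib 67 in place of 328 higher and 600 in place of 246 lower. The other baseline gave 921 in place of 1421 higher with doxorubicin, 238 in place of 395 lower with GSK 690693 and 130 in place of 246 lower with tofacitinib, where leaving out the filter gave 429. The cause was not tested. No paired analysis was possible because each treatment has 1 array, and for the same reason no replicate could be left out.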

Other observations

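The expression of some regulators and of the inhibitor genes they are known to act on followed the known direction on some arrays and not on others. Foxo3, a FOXO factor that induces Cdkn1b, read 8.67 with Compound C, 6.37 with doxorubicin, 7.27 with GSK 690693, 7.22 with tofacitinib and 7.30 with vehicle. It was highest with Compound C, where Cdkn1b differed from vehicle by 0.17, and level with vehicle under GSK 690693, where Cdkn1b differed by 0.63. Doxorubicin gave the lowest value of both genes. These are levels of transcripts and do not report FOXO protein activity.

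With doxorubicin, Myc, a repressor of Cdkn2b and Cdkn1b, stood at -3.09 against vehicle on the log2 scale, while Cdkn2b and Cdkn1b stood at -0.96 and -0.70. With Compound C, Myc stood at -1.05, and Cdkn2b and Cdkn1b at 0.27 and 0.17. Id1, a repressor of p16, read 5.51 with doxorubicin and 6.14 with Compound C, its lowest values, and 7.97 with vehicle. Cdkn2a was highest on the same arrays, at 8.99 and 8.72. The part of the regulators in these levels was not tested. The p53 targets Cdkn1a (-0.67) and Mdm2 (-1.42) were also below vehicle with doxorubicin, a DNA-damaging agent, while Cdkn2a stood at 0.61. These genes were chosen after their values were seen.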
